A study of Mus musculus with 10 samples.

Results

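The netrins, the Slits and the ephrins, with their receptors, were examined in dorsal root ganglia (DRGs), which hold the cell bodies of the sensory neurons. With earlier results of these data known, the 36 genes were chosen by name, from the netrin, Slit and Robo, and Eph and ephrin families. Of these, 35 were measured among 19938 genes in all, namely 8 netrins and netrin receptors, 6 Slits and Robos, 13 Eph receptors and 8 ephrins. By role they were 13 ligands and 22 receptors. Ephb2 had no probe set listed in the annotation used here. DRGs were taken from mouse embryos at E13.5 of gestation. In the Lkb1 KO embryos, floxed Lkb1 (gene symbol Stk11, a kinase that controls energy balance) had been deleted by Cre under Wnt1 control, which acts in the neural crest lineage, the source of DRG neurons and glia, and also in the midbrain and the dorsal neural tube. WT littermates of mixed genetic background were the controls, and the sources used here do not give whether they carried the floxed allele or the Cre transgene. Each of the 5 Lkb1 KO and 5 WT samples was a pool of DRGs from 2 embryos on 1 array, so that n counts pools. The values are log2 expression levels as the authors deposited them, and each mean below is followed by its SD over the 5 pools of a genotype. Members are not ranked by level, since probe sets differ in how strongly they bind, and a gene is called dim only where its signal was under the median gene signal of 6.73 on every array.

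Axon guidance systems tell a growing axon where to go. Netrins attract axons through Dcc and repel them when an Unc5 receptor takes part, Slits repel axons through Robo receptors and are known in mice to act in the branching of DRG axons, and ephrins signal between touching cells to Eph receptor tyrosine kinases, which is mostly repulsive for axons. Ephrin-A ligands are tied to the membrane by a lipid anchor, while ephrin-B ligands cross it and can signal backwards into their own cell. Most of these genes are expressed by neurons and by the tissues around them, and a level in whole DRGs sums over all these cells.

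Lkb1 KO DRGs had less Unc5c and less Epha6 RNA than WT DRGs, and no other member passed the test in the fit without pairing. With the replicate number as a block, 5 members were called, Unc5c, Epha6 and Epha3 as lower and Dcc and Epha5 as higher. The block fit also called more of all genes than the fit without pairing, 3.59% as higher and 2.83% as lower. Unc5c encodes a repulsive netrin receptor and Epha6 an EphA receptor tyrosine kinase. Unc5c fell by 17.1% and Epha6 by 31.4% on the linear scale. None of the 13 ligands passed the test in either fit. Of the 35 measured members, limma called 2 as lower and 0 as higher in Lkb1 KO (adjusted p under 0.05 over all genes), that is 5.71% as lower. Of all genes tested 3.87% were called, 1.38% as lower and 2.49% as higher. Both members also passed 0.01, as did 1.57% of all genes. At an unadjusted p under 0.05, 6 members were higher and 5 lower, 17.1% and 14.3% of them against 7.51% and 7.77% of all genes. Since the members were chosen with earlier results known, their shares are not independent of these data. The members' log2 fold changes had a median of -0.004 and ran from -0.54 to 0.57, and the median over all genes was -0.002. Without regard to sign, the median size was 0.087 in the members and 0.047 over all genes. These comparisons were not matched for signal. A mean under the median gene signal of 6.73 was found in 11 of 35 members and in 9969 of 19938 genes. The part of signal in the comparisons was not tested. Of the measured members, 17 had a positive and 18 a negative fold change.

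**Figure D1:**
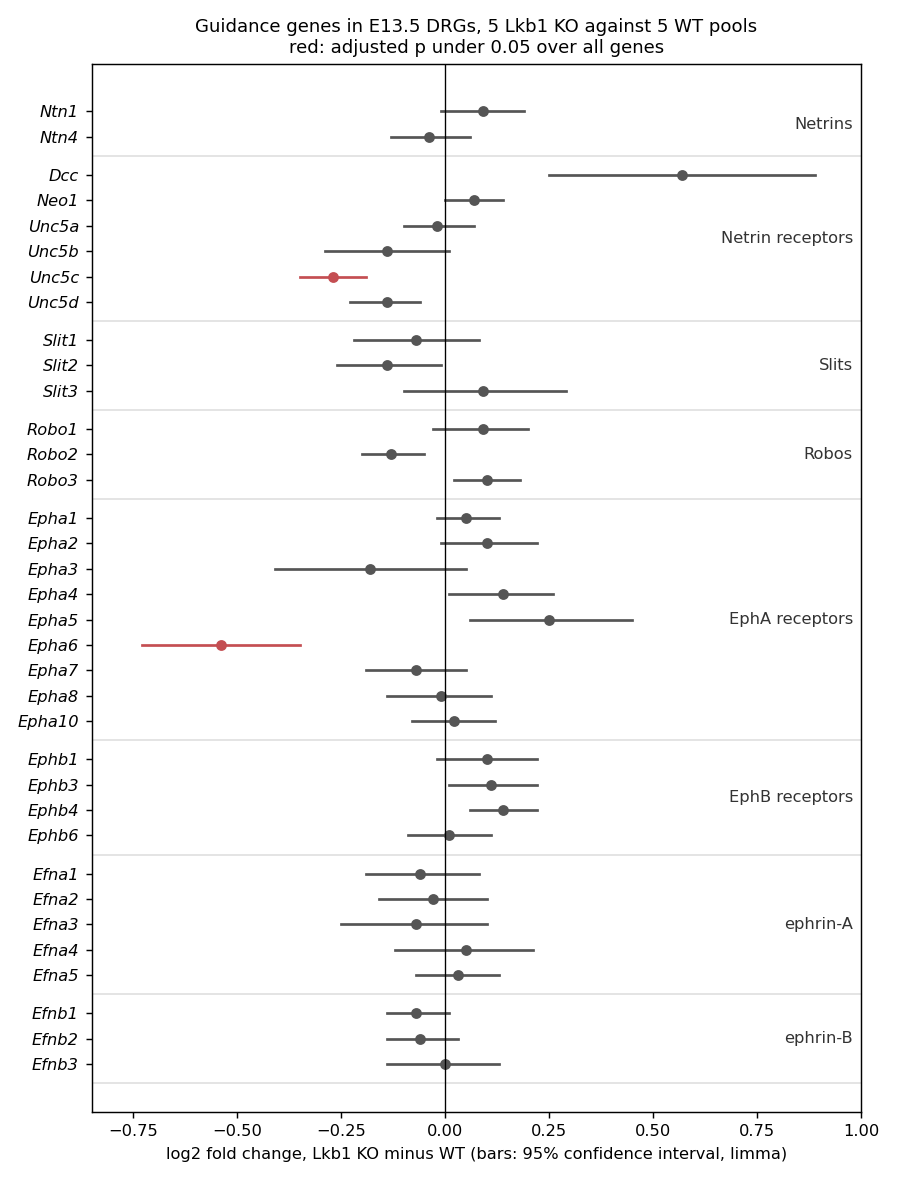
On the x axis, the log2 fold change of Lkb1 KO over WT for each measured guidance gene (y axis), with its 95% confidence interval from limma; red marks an adjusted p under 0.05 over all genes. Unc5c at -0.27 and Epha6 at -0.54 are the red points, Dcc at 0.57 has the widest interval, and all 8 ephrins lie close to 0.

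The check of the labels came first. Stk11 was between 7.68 and 7.94 in the Lkb1 KO pools and between 8.51 and 9.08 in the WT pools, with no overlap (log2 fold change -0.92, standard error 0.09, limma adjusted p = 1.15e-04). Whether the probes fall within the deleted exons was not examined. Markers of sensory neurons were present in every pool, with a mean log2 level of the 15 measured markers between 10.08 and 10.24 in WT and between 9.91 and 10.05 in Lkb1 KO. Of these 15 markers 3 were called as lower (Isl1, Elavl4 and Prrxl1) and 0 as higher, against 1.38% and 2.49% of all genes. The median log2 fold change of the 15 markers was -0.194. All 15 had a negative fold change, and 11 were lower at an unadjusted p under 0.05 from limma, against 7.77% of all genes. Markers of fibroblasts and mesenchyme had 9 of 12 higher and 0 lower, with list means of 8.60 to 8.74 in WT and 9.02 to 9.17 in Lkb1 KO. Those of dividing cells had 8 of 11 higher and 0 lower, with means of 8.70 to 8.92 and 9.06 to 9.31. Of all genes 2.49% were called as higher and 1.38% as lower. Of 10 measured markers of Schwann and satellite glia 1 was higher (Dhh, log2 fold change 0.69) and 1 lower (Cdh19, -0.50), with a median of -0.008. The part of these marker differences in the results below was not tested. In whole ganglia, fewer cells of a type and less RNA per cell cannot be told apart. The pools also differed in sex. Lkb1 KO replicates 2 and 5 had almost no Y-linked signal (mean of 3 Y-linked genes 5.02 and 5.21, against 8.80 to 9.81 in the other 8 pools) and had Xist, an RNA made from an inactive X. The Lkb1 KO replicate 3 pool stood apart in skeletal muscle markers (mean 6.38 against 5.25 to 5.46 elsewhere), and Lkb1 KO replicate 2 in sympathetic neuron markers (6.89 against 5.89 to 6.10). Without these last 2 pools together, a choice made after seeing the data, Unc5c and Epha6 were still lower (adjusted p = 0.0231 and 0.0209 from limma), and Dcc was called higher (0.0375).

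The promoters of both called genes are shown, since these are the members whose levels fell, and each gene has 1 window in RefSeq (GRCm38.p6), which runs from 250 bases before to 50 bases after the gene's start. The window of Unc5c is at chr3:141465314-141465613 on the plus strand, and that of Epha6 at chr16:60605482-60605781 on the minus strand. Capitals mark TGACG or its reverse complement in Unc5c, a core of the cAMP response element to which CREB binds, and CANNTG in Epha6, the E-box bound by basic helix-loop-helix factors:
Unc5c: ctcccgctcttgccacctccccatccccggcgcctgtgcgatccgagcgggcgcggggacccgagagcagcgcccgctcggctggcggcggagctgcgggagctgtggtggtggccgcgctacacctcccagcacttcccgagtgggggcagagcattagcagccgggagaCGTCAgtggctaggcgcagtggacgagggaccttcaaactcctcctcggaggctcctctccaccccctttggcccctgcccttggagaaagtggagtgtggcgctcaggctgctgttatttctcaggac
Epha6: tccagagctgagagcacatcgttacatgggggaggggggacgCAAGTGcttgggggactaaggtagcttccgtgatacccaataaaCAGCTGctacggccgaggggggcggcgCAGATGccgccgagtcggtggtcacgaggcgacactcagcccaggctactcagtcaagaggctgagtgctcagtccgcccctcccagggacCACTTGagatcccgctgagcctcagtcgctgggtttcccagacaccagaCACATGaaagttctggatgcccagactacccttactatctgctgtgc
Both strands were searched for the full cAMP response element TGACGTCA, its part TGACG, the E-box CANNTG and the TATA box letters TATAAA. A full element also counts as a TGACG match. Unc5c held 1 TGACG match and none of the other 3 motifs, and Epha6 held 5 CANNTG matches and none of the others. Of all 32851 promoter windows, 20.8% held TGACG, 72.3% held CANNTG and 2.1% held 5 or more CANNTG matches. TGACGTCA was in 1.79% and TATAAA in 13.6%. Windows were found for 31 of the 36 genes (36 windows in all), and TGACG was in 19.4% and CANNTG in 41.7% of these. A match is only a stretch of letters. The windows of the called genes shared no searched motif.

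Among the netrin receptors, the Unc5 genes all had negative fold changes and Dcc a positive one. Unc5c was at 9.74, 9.76, 9.79, 9.82 and 9.67 in WT replicates 1 to 5 and at 9.48, 9.51, 9.43, 9.49 and 9.53 in Lkb1 KO replicates 1 to 5. Every Lkb1 KO pool was below every WT pool, and the values within a genotype were close together. The means were 9.76 ± 0.06 (SD, n = 5) in WT and 9.49 ± 0.04 (SD, n = 5) for the Lkb1 KO pools. The log2 fold change was -0.27 (95% confidence interval -0.35 to -0.19, standard error 0.04, limma adjusted p = 0.00168), and an exact two-sided permutation test gave p = 0.00794, the smallest that 5 against 5 pools allow. Unc5c was called in all 22 alternatives, with adjusted p-values between 5.67e-04 and 0.0231. The gene stood at place 118 by size among the 275 called as lower.

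Unc5d, a netrin receptor family gene whose product also binds the adhesion protein Flrt2, was at 6.34, 6.28, 6.39, 6.34 and 6.31 in WT and at 6.13, 6.23, 6.28, 6.15 and 6.17 in Lkb1 KO. The groups touched at a single value, 6.28, and the Lkb1 KO pool was the lower one in 5 of 5 replicate numbers. Its log2 fold change of -0.14 (95% confidence interval -0.23 to -0.06) had a limma adjusted p of 0.0741, and of 0.0633 with the replicate block. A second probe set gave -0.18 (limma adjusted p = 0.184 when every probe set was tested). Unc5b was at 7.39 ± 0.14 in WT and 7.25 ± 0.11 in Lkb1 KO, again lower in 5 of 5 replicate numbers. Its limma adjusted p was 0.371, and 0.123 with the replicate block. Unc5a, at 4.96 and 4.95, was dim in both groups, and its log2 fold change was -0.02. The median log2 fold change of the 4 Unc5 genes was -0.141.

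Dcc, the attractive netrin receptor gene, had the largest positive fold change of the measured members and just missed the test. It was at 7.01, 7.11, 7.02, 7.21 and 6.86 in WT replicates 1 to 5 and at 7.66, 7.94, 7.13, 7.33 and 8.00 in Lkb1 KO replicates 1 to 5. Only Lkb1 KO replicate 3 lay within the WT range, and replicates 2 and 5 were the highest. The Lkb1 KO mean was 7.61 ± 0.38 against 7.04 ± 0.13 in WT, a log2 fold change of 0.57 (95% confidence interval 0.25 to 0.89, standard error 0.15). The adjusted p was 0.0507 from limma, and the exact two-sided permutation test of this gene alone gave p = 0.0159. With the replicate number as a block Dcc was called (limma adjusted p = 0.0377).

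Dcc also varied with the Y-linked signal of the pools. The Lkb1 KO pools without Y-linked signal had the highest values, 7.94 and 8.00. Among pools with both Y-linked and Xist signal, Lkb1 KO replicates 1 and 4 were at 7.66 and 7.33, above WT replicates 2 and 4 at 7.11 and 7.21. Among pools with Y-linked signal alone, Lkb1 KO replicate 3 was at 7.13, above WT replicates 1, 3 and 5 at 7.01, 7.02 and 6.86. Only these last 2 kinds of pool held both genotypes, 1 of them with a single Lkb1 KO pool, and no WT pool lacked Y-linked signal. The parts of sex and genotype in the Dcc difference cannot be told apart in the pools without Y-linked signal. In a fit that included the mean Y-linked level, the Dcc log2 fold change went from 0.57 to 0.26 (limma adjusted p = 0.154). Without Lkb1 KO replicates 2 and 5 it was 0.33 (limma adjusted p = 0.188). Unc5c, by contrast, was at -0.30 with the covariate (limma adjusted p = 0.00451). Of the 13 measured spinal cord and floor plate markers, 2 were higher (Pax2 and Pax6, both at 0.24), against 2.49% of all genes. The markers had list means of 4.93 to 5.01 in WT and 4.97 to 5.06 in Lkb1 KO, and their part in the Dcc difference was not tested.

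**Figure D2:**
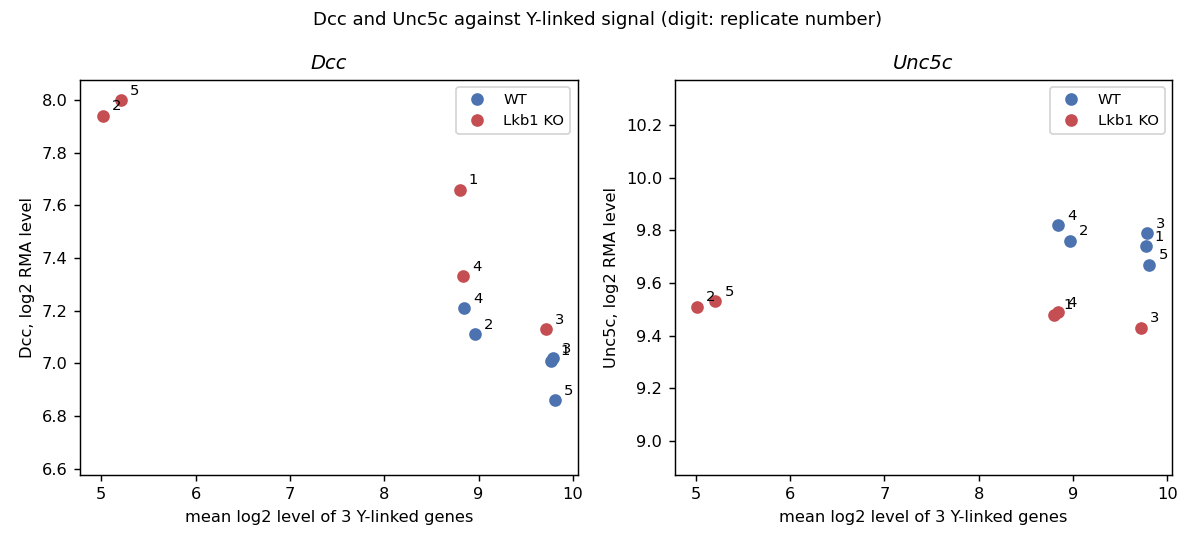
Log2 level of Dcc and of Unc5c (y axes) in each pool against the mean log2 level of 3 Y-linked genes (x axis); digits are replicate numbers, and both y axes span the same range. Dcc is highest in Lkb1 KO replicates 2 and 5, the pools at 5.02 and 5.21 on the x axis. Unc5c is lower in every Lkb1 KO pool than in every WT pool, but no WT pool lacks Y-linked signal.

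Neo1, the Dcc-related receptor gene that also serves repulsive guidance molecules of the Rgm family, was at 11.36, 11.36, 11.37, 11.38 and 11.35 in Lkb1 KO and at 11.34, 11.31, 11.29, 11.28 and 11.24 in WT. All Lkb1 KO values were above all WT values, but by little, and the log2 fold change of 0.07 had a limma adjusted p of 0.345. The ligand gene Ntn1 was at 5.32, 5.14, 5.21, 5.28 and 5.37 in WT and at 5.39, 5.33, 5.37, 5.29 and 5.37 in Lkb1 KO, which overlap. Its log2 fold change was 0.09 (95% confidence interval -0.01 to 0.19, limma adjusted p = 0.427). Ntn4, the gene of a netrin found in basement membranes, was at 5.88 ± 0.06 in WT and 5.85 ± 0.07 in Lkb1 KO. Both netrin genes were dim on the array. The median log2 fold change of the 8 netrins and receptors was -0.026.

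Of 12 measured genes of netrin and neogenin partners (14 were listed), 1 was lower and 1 higher, against 1.38% and 2.49% of all genes. The lower one was Ntng1, the gene of netrin-G1, a membrane-anchored relative of the netrins that does not act through Dcc. It was at 8.87 ± 0.07 in WT and 8.46 ± 0.07 in Lkb1 KO, with no overlap (log2 fold change -0.41, limma adjusted p = 2.61e-04). The higher one was Ntn5, another netrin family gene, at 5.72 ± 0.13 in WT and 6.07 ± 0.04 in Lkb1 KO (log2 fold change 0.34, limma adjusted p = 0.00506). Lrig2, whose product binds neogenin, and Draxin, the gene of a secreted repellent that binds Dcc, had log2 fold changes of -0.12 and -0.10 and adjusted p-values of 0.123 and 0.244 from limma.

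**Figure D3:**
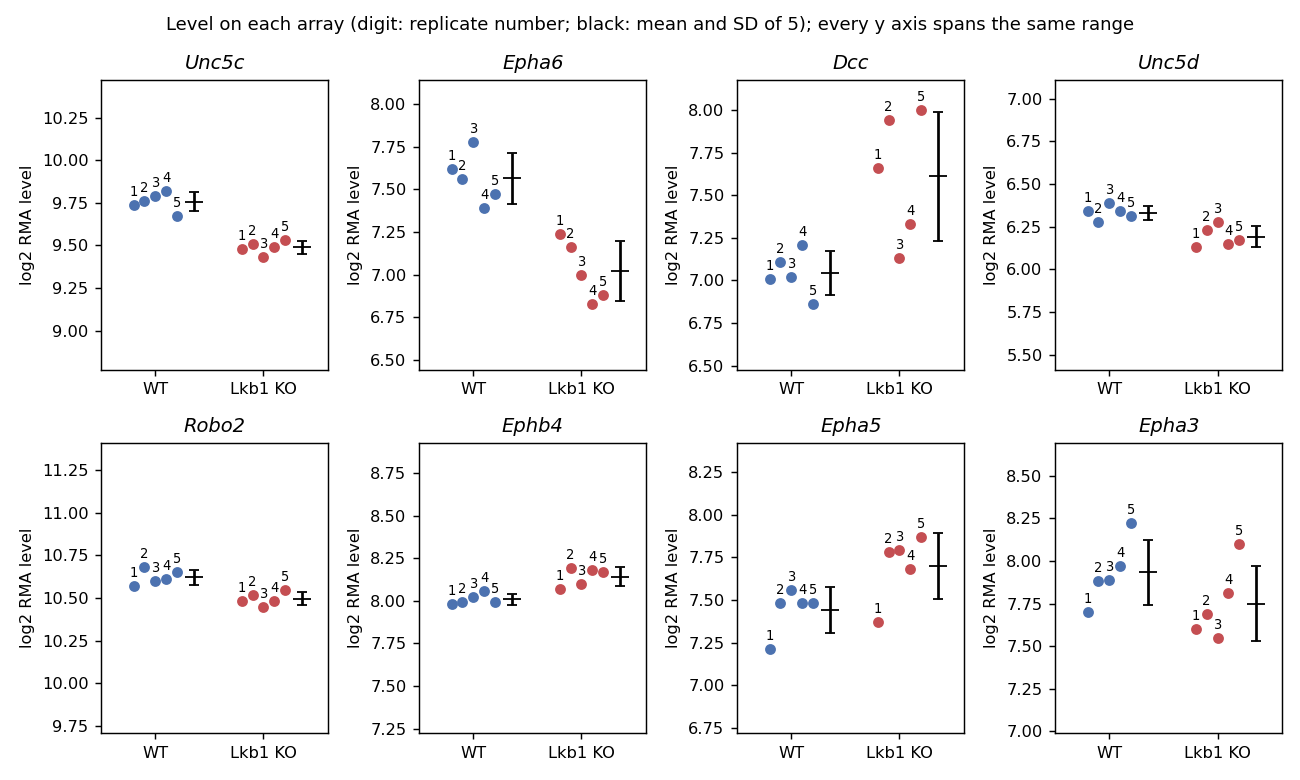
Log2 level (y axis) of 8 receptor genes in each WT (blue) and Lkb1 KO (red) pool, with the replicate number above each point and the mean and SD of 5 pools in black; every y axis spans the same range. For Unc5c, Epha6, Robo2 and Ephb4 the genotypes do not overlap, and for Dcc, Unc5d, Epha5 and Epha3 they do.

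In the Slit and Robo system 0 of the 6 members passed the test, which is near the 3.87% called over all genes. The Slit2 gene, which encodes a secreted repellent, was at 9.14, 9.13, 9.17, 9.14 and 9.17 in WT and at 8.95, 9.15, 8.85, 8.97 and 9.16 in Lkb1 KO. Lkb1 KO replicates 2 and 5, the pools without Y-linked signal, lay within the WT range and the other 3 Lkb1 KO pools lay below it. Over all pools the log2 fold change was -0.14 (95% confidence interval -0.26 to -0.01, limma adjusted p = 0.269). With the Y-linked covariate it was -0.24 and called (limma adjusted p = 0.0135), and without Lkb1 KO replicates 2 and 5 it was -0.23 and called (0.023). Slit1 had 9.02 ± 0.14 in WT and 8.95 ± 0.09 in Lkb1 KO. Slit3 had 8.14 ± 0.13 and 8.23 ± 0.19, with its highest value, 8.54, in Lkb1 KO replicate 2. Neither difference was larger than the spread between pools.

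Robo2, the gene of a Slit receptor, was at 10.57, 10.68, 10.60, 10.61 and 10.65 in WT and at 10.48, 10.52, 10.45, 10.48 and 10.55 in Lkb1 KO. All Lkb1 KO values were below all WT values, with the highest Lkb1 KO pool at 10.55 and the lowest WT pool at 10.57. The log2 fold change was -0.13 (95% confidence interval -0.20 to -0.05, limma adjusted p = 0.0753), and a per-gene analysis of variance called it (adjusted p = 0.0492), with 0.637% of all genes called as lower by that test, as did limma with an intensity trend and a robust prior (0.043). Robo1, its neighbour on chromosome 16, was at 9.44 ± 0.07 in WT and 9.52 ± 0.10 in Lkb1 KO, with overlap and a limma adjusted p of 0.497. Robo3, the gene of a receptor of commissural axons, was at 4.59 ± 0.02 in WT and 4.69 ± 0.05 in Lkb1 KO. Its groups did not overlap, but it was dim and its adjusted p was 0.174 from limma. The median log2 fold change of the 6 genes was 0.009, and -0.07 when the dimmest genes, Robo3 among them, were left out.

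Of 13 measured genes of Slit and Robo partners, 2 were higher and 0 lower, against 2.49% and 1.38% of all genes. Sdc3, the gene of the heparan sulfate proteoglycan syndecan-3, was at 9.22 ± 0.12 in WT and 9.67 ± 0.11 in Lkb1 KO, with no overlap (log2 fold change 0.44, limma adjusted p = 0.00183). Prrg4, the gene of a transmembrane Gla protein, was at 5.03 ± 0.08 and 5.31 ± 0.12, with overlap (log2 fold change 0.29, limma adjusted p = 0.02). Srgap3, of the Slit-Robo GTPase-activating proteins, had a log2 fold change of -0.10 (limma adjusted p = 0.274), and Ndfip1, the gene of a ubiquitin ligase adaptor, also had -0.10 (0.39).

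In the Eph system, Epha6 was at 7.62, 7.56, 7.78, 7.39 and 7.47 in WT replicates 1 to 5 and at 7.24, 7.16, 7.00, 6.83 and 6.88 in Lkb1 KO replicates 1 to 5. All Lkb1 KO pools lay below all WT pools, and Lkb1 KO replicates 4 and 5 were the lowest. The means were 7.02 ± 0.18 in Lkb1 KO and 7.57 ± 0.15 in WT. The log2 fold change was -0.54 (95% confidence interval -0.73 to -0.35, standard error 0.09, limma adjusted p = 0.00387, exact two-sided permutation p = 0.00794), so that WT exceeded Lkb1 KO 1.46-fold. By size it stood at place 22 among the 275 genes called as lower. Epha6 was called in all 22 alternatives, with adjusted p-values between 6.16e-04 and 0.0454, the highest from the per-gene analysis of variance. With the Y-linked covariate its log2 fold change was -0.53.

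Epha5 and Epha3, which encode other EphA receptors of neurons, went in opposite directions. Epha5 was at 7.21, 7.48, 7.56, 7.48 and 7.48 in WT and at 7.37, 7.78, 7.79, 7.68 and 7.87 in Lkb1 KO. Replicate 1 was the lowest of both genotypes, and Lkb1 KO was higher in 5 of 5 replicate numbers. The log2 fold change was 0.25 (95% confidence interval 0.06 to 0.45, limma adjusted p = 0.167), and with the replicate block the adjusted p was 0.00702. With the Y-linked covariate the Epha5 log2 fold change was 0.173 (limma adjusted p = 0.476). Without Lkb1 KO replicates 2 and 5, the pools without Y-linked signal, it was 0.172 (0.465). Epha3 was at 7.70, 7.88, 7.89, 7.97 and 8.22 in WT and at 7.60, 7.69, 7.55, 7.81 and 8.10 in Lkb1 KO. Replicate 5 was the highest of both genotypes, and Lkb1 KO was lower in 5 of 5 replicate numbers. Its log2 fold change was -0.18 (limma adjusted p = 0.497), with an adjusted p of 0.0393 with the replicate block. With that block 2 members were thus higher (Dcc and Epha5) and 3 lower (Unc5c, Epha6 and Epha3), against 3.59% of all genes higher and 2.83% lower in the same fit.

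The other EphA genes showed small differences. Epha4, the gene of a receptor for both ephrin classes, was at 7.11 ± 0.10 in WT and 7.24 ± 0.10 in Lkb1 KO, higher in 5 of 5 replicate numbers with a limma adjusted p of 0.279. Epha7 was at 9.91 ± 0.11 and 9.84 ± 0.06, a log2 fold change of -0.07 (limma adjusted p = 0.642). Lkb1 KO was lower in 5 of 5 replicate numbers, though in replicate 4 both genotypes rounded to 9.77. With the replicate block the limma adjusted p was 0.0865 for Epha4 and 0.407 for Epha7, so that neither was called. Epha1, Epha2, Epha8 and Epha10 were dim on the array, with log2 fold changes of 0.05, 0.10, -0.01 and 0.02 and adjusted p-values of 0.388 or more. A second probe set of Epha10, which encodes a receptor without kinase activity, gave 0.07.

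Of the 4 measured EphB genes none passed the test, which is near the 3.87% called over all genes. The median log2 fold change of the 4 was 0.107. The sign held in all alternatives for Ephb1, Ephb3 and Ephb4, and turned in 6 of 22 for Ephb6. Ephb4, known as the receptor of venous endothelium, was at 7.98, 7.99, 8.02, 8.06 and 7.99 in WT and at 8.07, 8.19, 8.10, 8.18 and 8.17 in Lkb1 KO. The groups did not overlap, although Lkb1 KO replicate 1 at 8.07 was next to WT replicate 4 at 8.06. The log2 fold change was 0.14 (95% confidence interval 0.06 to 0.22, limma adjusted p = 0.0637, 0.0395 without Lkb1 KO replicate 1). Of the 10 endothelial markers 1 was higher (Cldn5, log2 fold change 0.29) and 0 lower, against 2.49% and 1.38% of all genes. The markers had list means of 8.39 to 8.49 in WT and 8.42 to 8.69 in Lkb1 KO, and their part in the Ephb4 difference was not tested. Ephb3 had a log2 fold change of 0.11 (limma adjusted p = 0.286) and Ephb1 of 0.10 (0.423), while a second probe set of Ephb1 gave 0.00. Ephb6, another receptor gene without kinase activity in its product, had 0.01. The median log2 fold change of all 13 Eph receptors was 0.051.

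The ephrin genes differed little, with a median size of the log2 fold change of 0.05, close to the 0.047 over all genes. None of the 8 passed the test, none had an unadjusted p under 0.05 from limma and none had groups that did not overlap. Of all genes 3.87% were called, and 5.34% had groups that did not overlap. At an unadjusted p under 0.05, 7.51% of all genes were higher and 7.77% lower. For 8 genes, counts of 0 are not far from these shares. The log2 fold changes of the ephrins ran from -0.07 to 0.05, with a median of -0.041. The 95% confidence intervals of all 8 lay between -0.25 and 0.21 on the log2 scale, so that each gene's own interval leaves out changes above 1.19-fold in either direction. Efnb1, an X-linked gene, was at 8.91, 8.96, 8.97, 8.95 and 8.86 in WT and at 8.84, 8.89, 8.86, 8.83 and 8.90 in Lkb1 KO. The groups overlap, and the 2 Lkb1 KO pools without Y-linked signal, replicates 2 and 5, had the highest Lkb1 KO values. Its log2 fold change was -0.07 (limma adjusted p = 0.423). Efnb2, the ephrin of arterial endothelium, was at 8.87 ± 0.04 in WT and 8.81 ± 0.06 in Lkb1 KO, and Efnb3 at 6.86 ± 0.06 and 6.85 ± 0.14.

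Among the ephrin-A genes, Efna5 was at 10.10 ± 0.05 in WT and 10.13 ± 0.09 in Lkb1 KO, and Efna2 at 8.50 ± 0.11 and 8.47 ± 0.09. Efna1, Efna3 and Efna4 lie beside each other on chromosome 3 and had log2 fold changes of -0.06, -0.07 and 0.05. Their spreads between pools differed. Efna1 was at 7.03 ± 0.03 in WT and 6.97 ± 0.16 in Lkb1 KO, with the lowest value, 6.73, in replicate 4. Efna4 was at 7.35 ± 0.08 and 7.39 ± 0.18, with the highest, 7.70, in Lkb1 KO replicate 5. Efna3 had 8.90 ± 0.15 and 8.83 ± 0.15.

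**Figure D4:**
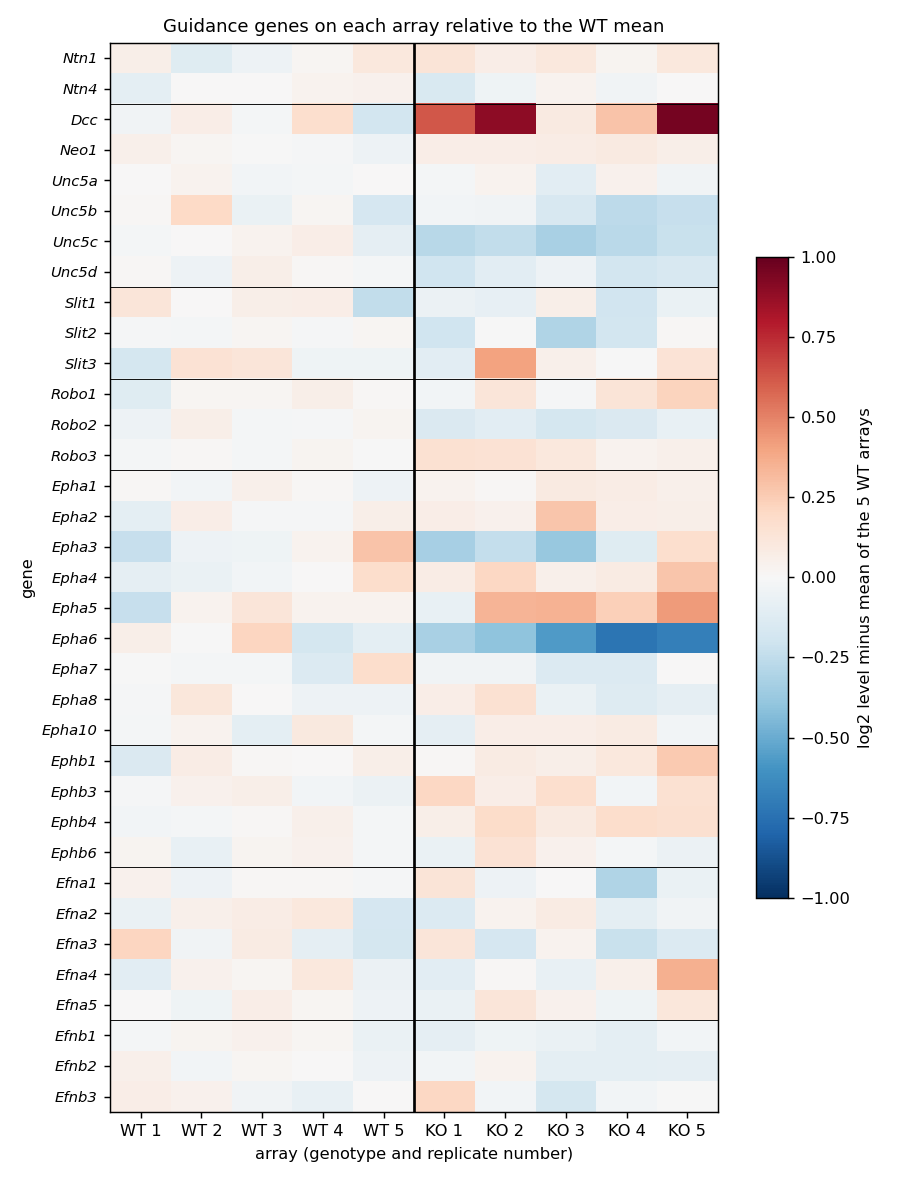
Difference of each pool from the mean of the 5 WT pools (colour, log2 scale) for the 35 measured guidance genes (rows, by system and role) and the 10 arrays (columns). The rows of Unc5c and Epha6 are blue in all 5 Lkb1 KO columns, the row of Dcc is red with replicates 2 and 5 darkest, and the ephrin rows are mostly pale.

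Of 21 measured genes of Eph and ephrin partners (22 were listed), 3 were lower and 2 higher, against 1.38% and 2.49% of all genes. The lower ones were Adam10, the gene of a metalloprotease that sheds ephrins, Vav3, the gene of a signalling protein that acts after Eph receptors, and Chn2, the gene of the Rac-inactivating protein beta-chimaerin. Adam10 was at 11.84 ± 0.04 in WT and 11.67 ± 0.04 in Lkb1 KO, with no overlap (log2 fold change -0.17, limma adjusted p = 0.0214). Vav3 had a log2 fold change of -0.35 (0.023) and Chn2 of -0.18 (0.0295). The higher ones were Pdzrn3, the gene of a PDZ-domain ubiquitin ligase, at 0.31 (limma adjusted p = 0.00646) and Tiam1, the gene of a Rac activator, also at 0.31 (0.0407). Of 26 measured genes of signalling shared by several guidance systems (31 were listed), 0 passed the test in limma, against 3.87% of all genes. At an unadjusted p under 0.05 from limma, 2 of them were higher and 6 lower, against 7.51% and 7.77% of all genes. The per-gene values with the smallest p were those of Dock1 at 0.16 (limma adjusted p = 0.0518), Trim67 at -0.22 (0.0971), Trim9, whose product binds Dcc, at -0.19 (0.166) and Ablim1 at -0.16 (0.197).

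By role, both called members were receptor genes. Of the 22 receptors, 2 were called, 10 had an unadjusted p under 0.05 (6 higher and 4 lower), beside 3.87% called and 7.51% higher and 7.77% lower over all genes, and the median size of the log2 fold change was 0.107. Of the 13 ligands 0 were called, which is near the share over all genes, 1 had an unadjusted p under 0.05 (Slit2) and the median size was 0.058, close to the 0.047 over all genes. Whether receptors and ligands differed in this was not tested. The groups did not overlap in 6 members, 17.1% of those measured, against 5.34% of all genes. Unc5c, Robo2 and Epha6 were the ones with all Lkb1 KO values below WT (2.24% of all genes), and Neo1, Robo3 and Ephb4 those with all values above (3.09%). All 6 encode receptors. The members were chosen with earlier results known and were not matched to all genes by signal, which limits what these shares can show. Of the measured members, 11 lay on every array below 6.73, the median of the mean levels of all genes, and their log2 fold changes ran only from -0.14 to 0.10. No detection call was used, and a change in a gene this dim can be compressed.

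**Figure D5:**
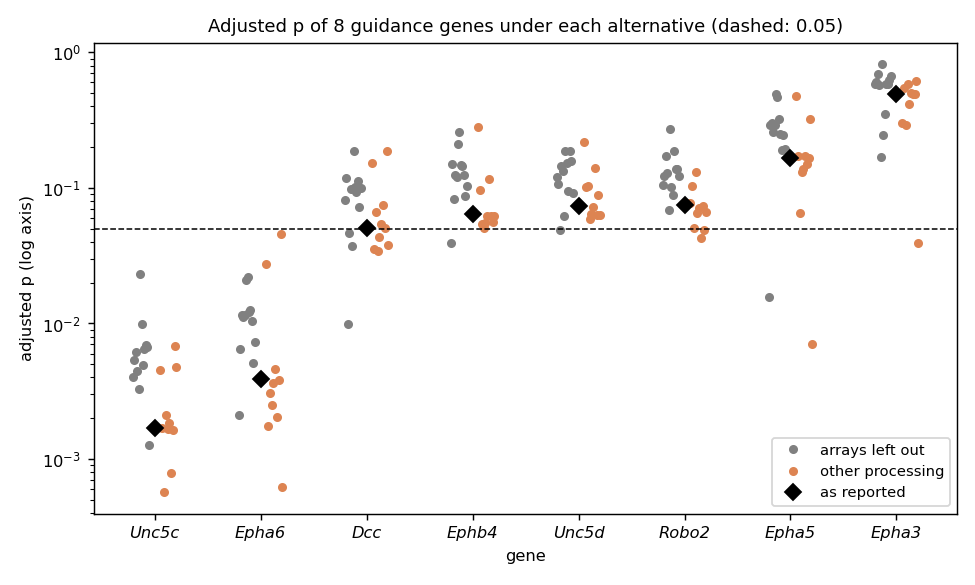
Adjusted p (y axis, log scale) of 8 receptor genes as reported (black diamonds), with arrays left out (grey) and with other processing (orange); the dashed line is 0.05. All points of Unc5c and Epha6 lie under the line, those of Dcc lie on both sides of it, and those of the other 5 genes lie mostly above it.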

How the data were processed

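RNA of E13.5 DRGs (250 ng per array) was measured on 10 one-colour arrays, 5 Lkb1 KO and 5 WT. The authors deposited log2 values of 35556 probe sets. RMA and Partek 6.6 are named in the submitters' notes, and the paper's methods give MATLAB and a false discovery rate threshold of 0.01. Array medians lay between 6.50 and 6.57. A single gene was listed for 21789 probe sets, more than 1 for 1621 and no gene for 12146, and 21698 of the first kind were named through RefSeq (GRCm38.p6). The probe set with the highest mean stood for its gene where there were several (999 genes). The genotypes were set against each other in limma 3.58.1 (R 4.3.3, lmFit followed by eBayes, two-sided tests, Benjamini-Hochberg over 19938 genes, called under 0.05), and single genes also by an exact permutation test. Python 3.11.15, pandas 2.3.3 and matplotlib 3.10.9 did the rest. The fit was tested on simulated data.

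The members and lists were chosen with earlier results of these data known. Every member is named; the called ones, and the 3 ligands and 3 receptors with the next smallest p, are given in full, and of each pathway list the 4 genes with the smallest p. Neo1, Robo2, Epha3 and Epha5 are given in full, and Tiam1 is named, after their values were seen. Same-numbered samples deviated together, with correlations from 0.21 to 0.479 across genes, so the replicate numbers were taken to pair them. Different numbers gave -0.482 to 0.306, and WT replicate 5 correlated more with Lkb1 KO replicate 4 (0.306) than with Lkb1 KO replicate 5 (0.239). The pairing rests on the values, since the labels do not say what a number marks, and the unpaired fit was kept as the reported one. The permutation tests are unpaired. No arrays held the same values (SD of differences within a group 0.177 to 0.276). The labels call the samples biological replicates. The number of arrays limits the precision, and p-values measure the spread between these pools. Alternatives were other scalings, filters, probe set choices and tests, a Y-linked covariate, a replicate block and arrays left out. The Y-linked covariate was the mean of Eif2s3y, Ddx3y and Uty, since Kdm5d, also planned, had no probe set listed.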

Additional observations from a re-analysis of the deposited data

Results flagged for a closer look

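Of 72 groups of 5 pools examined, for the members and Stk11, 4 held a sample far from the other 4, and chance gives about 1 in 20. WT replicate 1 was the low sample in 3 of them. It was at 5.79 for Ntn4 (the others 5.89 to 5.93), at 9.32 for Robo1 (9.45 to 9.50) and at 7.21 for Epha5 (7.48 to 7.56). Lkb1 KO replicate 3, the pool with the highest skeletal muscle markers, was at 5.73 for Epha2, the gene of an EphA receptor of epithelia (5.50 to 5.52 in the others). None of these 4 genes was called with all pools or without the sample in question.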

How the results depend on the processing

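Unc5c and Epha6 were called as lower in all 22 alternatives, and the members called as lower stayed within 1.5 times 2. The members called as higher, 0 with all pools, were 1 with array medians aligned, with cyclic loess and with the dimmest 30% of genes left out (Dcc each time), 2 with the replicate block, 1 without Lkb1 KO replicates 2 and 3 (chosen after seeing the data), and 0 to 2 with 1 sample left out. Dcc was also called without Lkb1 KO replicate 3 (adjusted p = 0.00998) or 4 (0.0469), Unc5d without Lkb1 KO replicate 3 (0.0489), and Epha5 (0.0156) and Ephb4 (0.0395) without Lkb1 KO replicate 1, all from limma. The replicate block changed no call of a member other than Dcc, Epha5 and Epha3. The sign of the fold change held in 26 members and turned in some alternative in 9, none of them called, whose changes were at most 0.095 in size. The median of Slits and Robos was -0.07 without the dimmest genes, which removes Robo3. Over all genes, 496 were higher and 275 lower; these were 285 higher with the Y-linked covariate, 260 and 127 with the per-gene analysis of variance, 288 and 171 without Lkb1 KO replicates 2 and 5, 275 and 99 without 2 and 3, and 565 lower with the replicate block. Leaving out 1 sample gave 146 (without WT replicate 3) to 347 (without Lkb1 KO replicate 1) lower genes. It gave 182, 148 and 152 when WT replicate 1, 2 or 4 was left out, and 179 and 173 for Lkb1 KO replicate 3 or 4. The causes were not tested.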
